A study of Mus musculus with 3 samples.

Results

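The genes described here encode the secreted and cell-surface metalloproteases that cut extracellular matrix, and their tissue inhibitors: matrix metalloproteases (MMP), the membrane-anchored ADAM proteins, the secreted ADAMTS proteins with their ADAMTS-like relatives, and the TIMP inhibitors. They were chosen by symbol, as every named gene that begins with Mmp, Adam or Adamts followed by its number or letter, and Timp1 to Timp4. This gave 83 of the 19938 named genes on the array, comprising 22 MMP, 4 TIMP, 34 ADAM, 18 ADAMTS and 5 ADAMTS-like genes. Mmp15 and Adamts2 were not analysed here. The sorted cells were mesangial cells, pericyte-like cells between the capillaries of the glomerulus. They came from the renal cortex of adult CD-1 male mice carrying the transgene Tg(Meis1-EGFP)FO156Gsat, in which Meis1 regulatory sequence drives green fluorescent protein. Glomeruli were caught on a 40 µm mesh, dissociated with trypsin and sorted by fluorescence, and the source named in the labels covers the mesangium inside and outside the glomerulus. There was 1 group of 3 samples, each from 1 kidney and none pooled, with no treatment and no control population. Whether these were kidneys of different animals is not stated, and the spread given below, which is that between samples, may therefore be partly technical.

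MMPs are made as inactive proenzymes and cut collagens, gelatin, laminins and other matrix proteins once their prodomain is removed. ADAMs mostly release the outer parts of membrane proteins such as growth factor precursors, cytokines and Notch receptors, whereas ADAMTS enzymes bind to the matrix and cut proteoglycans, procollagens and von Willebrand factor. TIMPs occupy the active site of these enzymes. In the glomerulus, turnover of the mesangial matrix depends on the balance of such proteases and inhibitors.

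All values are deposited log2 signals of 1 probe set per gene, the one with the highest mean over the arrays. Background was set per array from genes that kidney cells should not express (those for keratin-associated proteins and for vomeronasal, olfactory and trace amine receptors), and a gene was called above it when each of its 3 values exceeded the 95th percentile of these silent probe sets. These silent-gene thresholds were 7.48, 7.46 and 7.40 in samples 1, 2 and 3. By this rule 4.71% of the silent genes themselves passed, a share that the 95th percentile largely fixes and that is no independent check. The threshold raised by 1 was passed by 0.958% of them, so a gene within 1 of the threshold lay close to background. The highest mean among these genes was 10.14, and whether all of them were silent in these cells was not tested. Because affinity varies from probe set to probe set, values of different genes are not ranked by amount. In a bulk sample, RNA from few cells of another type and a low level in every cell cannot be told apart.

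All 7 markers fixed for mesangial cells (Itga8, Pdgfrb, Gata3, Des, Agtr1a, Igfbp5 and Ptn) exceeded the threshold by more than 1 in every sample. So did 4 of 5 smooth muscle markers, 4 of 7 endothelial markers, with Tek at 10.78 ± 0.12 (SD, n = 3), 1 of 5 podocyte markers, Wt1 at 10.15 ± 0.08, and 2 of 5 fibroblast markers, Pdgfra at 11.17 ± 0.13 and Col1a1 at 8.59 on all 3 arrays. Dcn passed by less than 1 in all samples, while Lum and Dpt did not pass. Of the defining endothelial genes Pecam1, Cdh5 and Kdr each lay above the threshold by less than 1. No macrophage, neutrophil, spermatid or tubule marker exceeded it by more than 1 in every sample, and none of the 8 neutrophil markers passed at all. However, 5 of 8 tubule, 2 of 7 macrophage and 1 of 5 spermatid markers passed the threshold itself in every sample. Tubule markers also differed between samples, and 3 of the 8 had a range of at least 0.5. These were Umod (9.51, 9.18 and 8.22 in samples 1, 2 and 3), Kap (8.44, 8.51 and 7.17) and Calb1 (7.72, 8.66 and 8.49). The part of RNA from any of these other cell types, fibroblasts included, in the values below was not tested.

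Of the 83 members, 30 (36.1%) lay above the threshold on all 3 arrays, against 58.1% of the 18602 other named genes. Here and below, the other named genes leave out the silent genes. Over all 19938 named genes, silent genes and members included, the share was 54.7%. With the threshold raised by 1, 18 members (21.7%) remained above, against 32.8% of the other genes. The median distance from the threshold was -0.38 over the members and 0.36 over the other genes. The share differed widely with the role of the genes. Of the 12 ADAM genes of somatic tissues 9 passed, of the 22 ADAM genes of the reproductive tract 2 passed, and the counts were 8 of 18 for ADAMTS, 3 of 5 for ADAMTS-like, 6 of 22 for MMP and 2 of 4 for TIMP genes. Without the reproductive tract genes 28 of 61 members passed (45.9%), still below the share of other genes. These are descriptions of 1 group of samples, and no test was made of them.

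**Figure D1:**
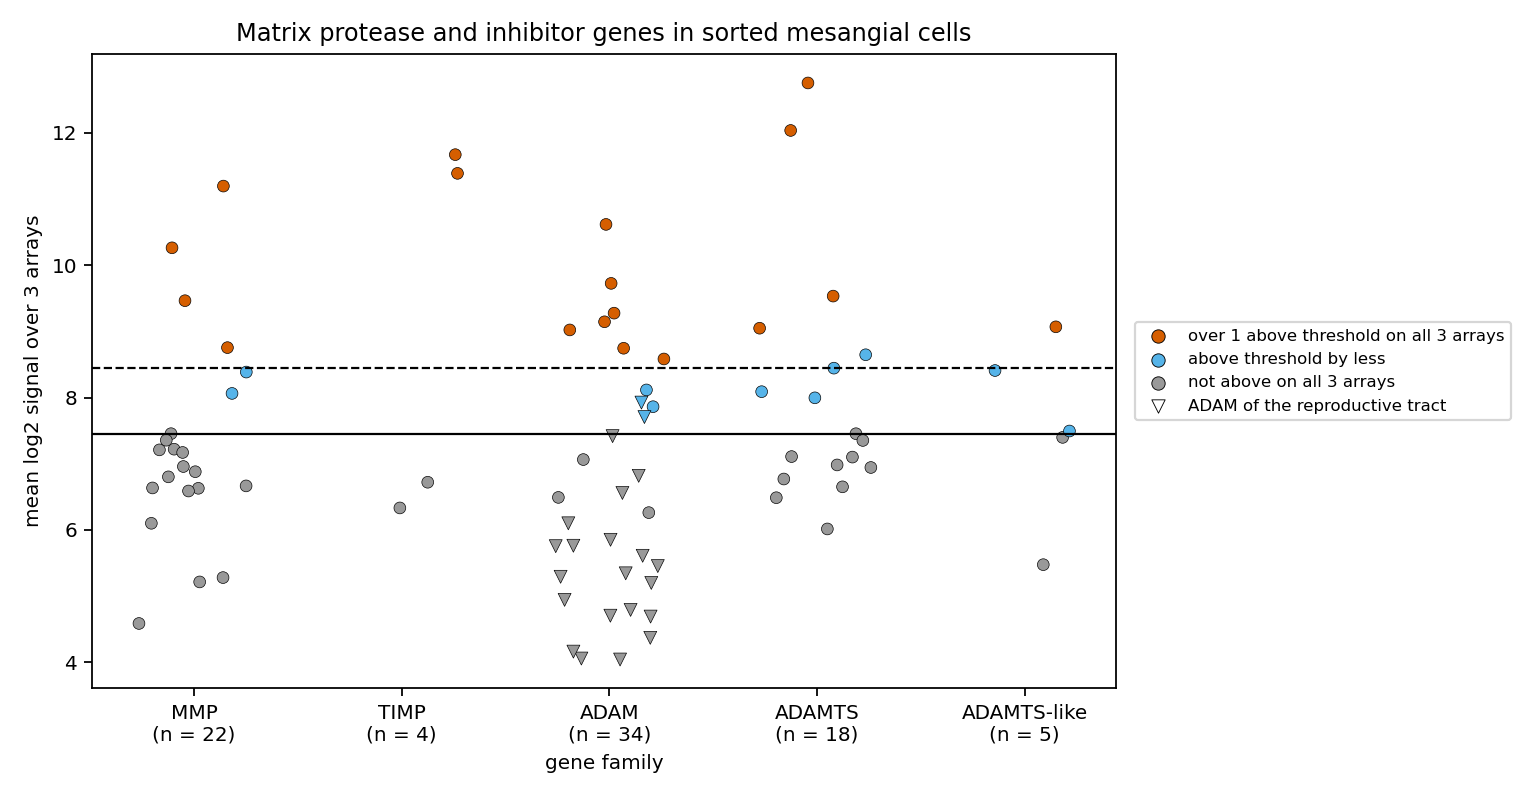
Mean log2 signal over the 3 arrays of each of the 83 genes, by family. The solid line is the mean silent-gene threshold and the dashed line lies 1 above it. Orange points lie over 1 above the threshold on all 3 arrays (18 genes), blue points above it on all 3 but by 1 or less on at least 1 array (12 genes), grey points not above it on all 3 (53 genes), and triangles mark ADAM genes of the reproductive tract, none of which is orange.

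Promoter sequences are shown for members on either side of the threshold. A run of 10 MMP genes lies side by side in the mouse genome with no other protein-coding gene between them (Mmp13, Mmp12, Mmp1b, Mmp3, Mmp1a, Mmp10, Mmp8, Mmp27, Mmp20 and Mmp7), and none of the 10 passed the threshold. RefSeq promoter windows of 300 bases around the gene start (GRCm38.p6) were at hand for 52 of the 83 members. Each was searched on both strands for the AP-1 element TGAGTCA, the TATA box TATAAA and the GC box GGGCGG, which do not overlap each other as searched. The 4 windows of Mmp13, Mmp3, Mmp10 and Mmp1a were picked after the values were seen, as genes of the run that hold both the AP-1 element and the TATA box. They are printed 5′ to 3′ on the strand of the gene, with the motifs in capitals, TGACTCA being the AP-1 element read on the other strand. All lie on the plus strand, at chr9:7272264-7272563 for Mmp13, chr9:7445572-7445871 for Mmp3, chr9:7502092-7502391 for Mmp10 and chr9:7463891-7464190 for Mmp1a.
Mmp13: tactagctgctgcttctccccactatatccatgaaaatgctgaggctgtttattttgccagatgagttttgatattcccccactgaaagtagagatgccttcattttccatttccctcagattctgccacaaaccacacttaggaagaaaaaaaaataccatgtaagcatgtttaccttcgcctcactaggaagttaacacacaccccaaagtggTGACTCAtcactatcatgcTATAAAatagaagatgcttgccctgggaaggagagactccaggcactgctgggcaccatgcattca
Mmp3: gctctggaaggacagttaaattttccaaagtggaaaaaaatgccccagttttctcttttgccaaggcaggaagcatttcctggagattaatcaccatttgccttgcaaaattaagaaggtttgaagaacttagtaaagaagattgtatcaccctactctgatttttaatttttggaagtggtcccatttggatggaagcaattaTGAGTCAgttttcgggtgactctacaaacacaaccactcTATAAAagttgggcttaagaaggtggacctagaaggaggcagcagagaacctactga
Mmp10: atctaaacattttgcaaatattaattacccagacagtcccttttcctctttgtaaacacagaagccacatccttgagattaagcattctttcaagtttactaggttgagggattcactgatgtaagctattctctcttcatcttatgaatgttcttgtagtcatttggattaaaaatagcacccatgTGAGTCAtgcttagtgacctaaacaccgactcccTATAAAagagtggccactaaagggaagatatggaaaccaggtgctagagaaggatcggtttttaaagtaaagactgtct
Mmp1a: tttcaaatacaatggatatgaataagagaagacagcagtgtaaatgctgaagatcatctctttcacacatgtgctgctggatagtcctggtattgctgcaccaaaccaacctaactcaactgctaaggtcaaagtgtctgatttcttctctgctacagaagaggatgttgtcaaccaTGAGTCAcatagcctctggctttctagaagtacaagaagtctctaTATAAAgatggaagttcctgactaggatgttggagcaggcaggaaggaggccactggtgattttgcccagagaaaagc

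For contrast, the windows of 4 members that lay well above the threshold are Adamts1 (chr16:85803064-85803363, minus strand), Mmp14 (chr14:54431348-54431647, plus strand), Timp2 (chr11:118355362-118355661, minus strand) and Timp3 (chr10:86300162-86300461, plus strand), also picked after their values were seen. Here the capitals mark GC boxes, as GGGCGG or, on the other strand, CCGCCC, and the single TATA box of Adamts1.
Adamts1: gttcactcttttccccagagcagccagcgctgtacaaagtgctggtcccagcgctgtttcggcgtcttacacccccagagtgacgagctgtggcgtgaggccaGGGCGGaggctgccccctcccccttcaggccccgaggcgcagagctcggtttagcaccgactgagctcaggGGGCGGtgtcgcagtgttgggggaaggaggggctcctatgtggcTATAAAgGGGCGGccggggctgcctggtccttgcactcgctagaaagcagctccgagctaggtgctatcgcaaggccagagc
Mmp14: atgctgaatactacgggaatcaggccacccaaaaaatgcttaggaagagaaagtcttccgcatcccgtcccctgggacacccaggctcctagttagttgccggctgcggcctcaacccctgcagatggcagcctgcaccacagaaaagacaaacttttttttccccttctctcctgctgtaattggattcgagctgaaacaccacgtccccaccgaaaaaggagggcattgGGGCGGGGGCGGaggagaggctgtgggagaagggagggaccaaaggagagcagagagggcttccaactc
Timp2: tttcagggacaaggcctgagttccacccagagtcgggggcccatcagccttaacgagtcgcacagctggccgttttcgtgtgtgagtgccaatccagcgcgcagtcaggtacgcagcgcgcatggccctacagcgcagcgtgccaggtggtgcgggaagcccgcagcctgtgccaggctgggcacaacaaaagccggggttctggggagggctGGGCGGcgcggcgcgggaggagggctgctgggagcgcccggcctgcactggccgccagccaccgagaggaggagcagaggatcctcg
Timp3: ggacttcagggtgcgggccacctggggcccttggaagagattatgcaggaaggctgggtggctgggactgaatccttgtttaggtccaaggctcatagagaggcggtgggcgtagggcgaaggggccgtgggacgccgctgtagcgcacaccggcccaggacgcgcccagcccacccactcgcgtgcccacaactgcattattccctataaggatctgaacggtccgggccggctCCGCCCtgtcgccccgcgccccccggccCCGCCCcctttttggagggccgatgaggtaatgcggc

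In the run of MMP genes 7 of 10 genes held the AP-1 element and 9 of 10 the TATA box, while no window held a GC box. The 7 with the AP-1 element all held the TATA box as well. Over all 27025 genes with a window the shares were 5.95% for the AP-1 element, 15.7% for the TATA box and 38.2% for the GC box. Of the 20 members above the threshold that had a window, 1 held the AP-1 element (Adam19, in 1 of its windows), 2 the TATA box (Adamts1 and Adamtsl2) and 16 the GC box. Of the 32 members not above it, 9 held the AP-1 element, 14 the TATA box and 9 the GC box. Outside the run, 22 members not above the threshold had a window, and 2 of them held the AP-1 element, 5 the TATA box and 9 the GC box. Of the 11 reproductive tract ADAM genes with a window, of which Adam1a alone passed, 2 held the AP-1 element, 4 the TATA box and none the GC box. Outside the run and these genes, all members not above the threshold held the GC box except Adam23, Mmp21 and Timp4. None of them held the AP-1 element, and Mmp21 alone held the TATA box. The median number of CG dinucleotides in a window was 19 for members above the threshold, 2 for members not above it and 7 over all windows. It was 1 in the run and 1 in the reproductive tract ADAM genes. The remaining members not above the threshold were not set apart in this way. They had 20 to 46 in Adam23, Adamts14, Adamts18, Adamts20, Adamtsl3, Mmp24 and Mmp28, 18 in Mmp25, 8 in Timp1, and 2 in Adamts13, Mmp21 and Timp4. The promoter search was not part of the plan and was made with the calls known. The 10 genes of the run are neighbours of 1 family and do not count as independent cases. Motif shares of other genes above the threshold were not counted, so the members above it were not compared with these. A match is only a string of letters in the window, and binding of a factor was not measured.

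Among the secreted MMPs, the gelatinase gene Mmp2, whose product cuts gelatin and type IV collagen, had 11.27, 11.11 and 11.21 in samples 1, 2 and 3 (11.20 ± 0.08, SD, n = 3). Each value lay more than 3 above the threshold of its array, and the 3 samples were within 0.16 of each other. The other gelatinase gene, Mmp9, which is abundant in neutrophils, had 6.80 on every array and was below the threshold. The collagenase genes Mmp1a, Mmp1b, Mmp8 and Mmp13, the stromelysin genes Mmp3 and Mmp10, and the matrilysin Mmp7 and macrophage elastase Mmp12 were all below it as well. Mmp1b, at 4.59 ± 0.01 (SD, n = 3), was the lowest MMP value, and Mmp7, at 7.36 on each array, the nearest to the threshold in the run of neighbouring genes. Stromelysin 3, Mmp11, is activated inside the cell by furin-type enzymes, and it had 8.44, 8.31 and 8.41, above the threshold by less than 1 in samples 1 and 2.

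Membrane-bound MMPs act at the cell surface. Of the 3 measured transmembrane members, Mmp14 and Mmp16 lay more than 1 above the threshold. Mmp14, which activates the Mmp2 proenzyme at the cell surface with the help of Timp2, had 10.26, 10.27 and 10.26. Mmp16 had 9.47 on all 3 arrays. Mmp24 was the MMP gene just below the threshold, at 7.46, 7.45 and 7.46, and it passed in sample 3 alone. Of the 2 enzymes held by a glycolipid anchor, Mmp17 at 8.07, 8.07 and 8.06 was the MMP gene nearest above the threshold and Mmp25 at 6.59 was below it. Mmp23, a short type II membrane protein that lacks the usual hemopexin domain, had 8.76 on all 3 arrays and was the only 1 of the 6 remaining MMP genes to pass, with Mmp19, Mmp20, Mmp21, Mmp27 and Mmp28 between 6.10 and 7.22. The 4 MMP genes more than 1 above the threshold were therefore Mmp2, Mmp14, Mmp16 and Mmp23.

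The inhibitors divided 2 against 2. Timp2, which inhibits MMPs and also brings the Mmp2 proenzyme to Mmp14, had 11.38, 11.34 and 11.45 (11.39 ± 0.06, SD, n = 3). Timp3, the matrix-bound inhibitor that also acts on Adam17 and on the aggrecanases, had 11.37, 11.90 and 11.75 (11.67 ± 0.27, SD, n = 3). Both lay more than 3 above the threshold in every sample, and Timp3 was lowest in sample 1. Timp1, the inducible and widely secreted inhibitor, had 6.33 on all 3 arrays, and Timp4 had 6.72 on all 3. Both of these values were below the threshold of every array.

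**Figure D2:**
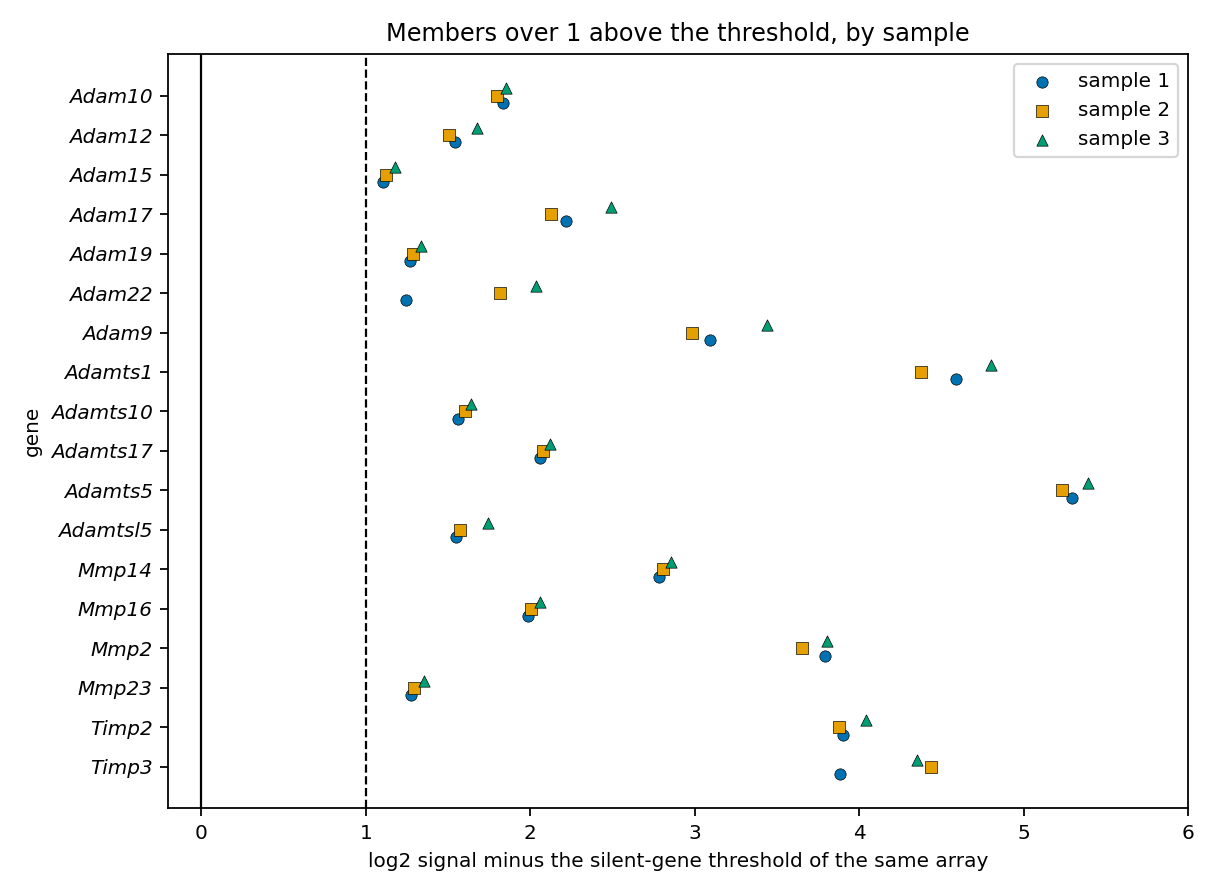
Log2 signal minus the silent-gene threshold of the same array for the 18 genes that passed the threshold raised by 1 (dashed line), with 1 marker per sample. Adamts5 lies more than 5 above the threshold in all 3 samples, and Adam22 and Timp3 are the genes whose samples lie farthest apart.

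Of the 9 somatic ADAM proteases 8 passed, and 6 of them by more than 1. Adam9, a broadly expressed sheddase, had 10.57, 10.44 and 10.84 (10.62 ± 0.20, SD, n = 3). Adam17, the tumour necrosis factor converting enzyme and main sheddase of epidermal growth factor receptor ligands, had 9.70, 9.59 and 9.89 (9.73 ± 0.15, SD, n = 3). Adam10, the sheddase that cuts Notch receptors after ligand binding, had 9.31, 9.26 and 9.26 (9.28 ± 0.03, SD, n = 3). All samples of these genes lay more than 1.5 above the threshold, with Adam9 and Adam17 lowest in sample 2.

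The meltrin genes Adam12, whose protein sheds growth factors and binds integrins and syndecans, and Adam19, a sheddase for neuregulin, had 9.02, 8.97 and 9.08 and 8.75, 8.75 and 8.74. Adam15, whose disintegrin domain carries an integrin-binding sequence, had 8.58 on all 3 arrays. Adam33 at 8.12 on all 3 and Adam8, known from leukocytes, at 7.82, 7.88 and 7.88 passed by less than 1. Adam28, known from lymphocytes and epididymis, had 6.26 and was the 1 somatic protease not above the threshold.

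Of the 3 somatic ADAM genes whose proteins lack protease activity, Adam22 alone passed. Adam22 encodes a receptor for the secreted LGI proteins, best known at synapses, and had 8.72, 9.28 and 9.44 in samples 1, 2 and 3 (9.15 ± 0.38, SD, n = 3). It lay more than 1 above the threshold in every sample, with sample 1 at least 0.5 below both others. Its relatives Adam11 at 7.06 and Adam23 at 6.49, each identical on the 3 arrays, were below the threshold.

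The ADAM genes of testis and epididymis include many that encode sperm membrane proteins. They were grouped with earlier results of these data known and are therefore no independent check. Of the 22, 2 (9.09%) passed, against 4.71% of the silent genes and 58.1% of the other named genes. None of the 22 lay more than 1 above the threshold. Adam1a, at 7.92, 7.93 and 7.92, and Adam4, at 7.71 on all 3 arrays, passed by less than 1, the latter being the ADAM gene nearest above the threshold. Another probe set that Adam4 shares with Gm4787 read 6.56, 6.49 and 6.49, below the threshold. Adam21, at 7.55, 7.35 and 7.35, was the ADAM gene nearest below and passed in sample 1 alone. The 20 that did not pass had means from 4.04, in Adam26a, to 7.42, in Adam21. Adam9 lies beside 4 of these genes in the genome (Adam18, Adam3, Adam5 and Adam32), whose means were between 4.94 and 6.10, while Adam9 itself was more than 2.9 above the threshold.

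Among the ADAMTS genes 2 proteoglycanases lay far above the threshold. Adamts5, the main aggrecanase of mouse cartilage, which also cuts versican, had 12.78, 12.70 and 12.79 (12.76 ± 0.05, SD, n = 3). Adamts1, a versican- and aggrecan-cutting enzyme, had 12.07, 11.84 and 12.21 (12.04 ± 0.19, SD, n = 3). All 3 samples of both genes lay more than 4 above the threshold. Adamts1 and Adamts5 are direct neighbours in the genome.

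Of the other proteoglycanases only Adamts9 passed the threshold. Adamts4 at 7.35, Adamts8 at 6.98 and Adamts20 at 6.49, each identical on the 3 arrays, and Adamts15 at 7.19, 7.07 and 7.07 were below the threshold. Adamts9 had 8.75, 8.44 and 8.75 (8.65 ± 0.18, SD, n = 3) and passed by less than 1 in sample 2. Outside the proteoglycanases, 2 enzymes passed by more than 1. These were Adamts10, which binds fibrillin microfibrils, at 9.04, 9.06 and 9.04, and Adamts17, at 9.54, 9.54 and 9.52, whose human counterpart like that of Adamts10 is mutated in short-stature syndromes with lens dislocation. Adamts7 and Adamts12 can cut cartilage oligomeric matrix protein. Adamts7 at 8.09 on all 3 arrays passed by less than 1, as did Adamts12 at 8.54, 8.40 and 8.40 in samples 2 and 3. The procollagen N-proteinase gene Adamts3, at 7.997 on all 3, was the ADAMTS gene nearest above the threshold, and its relative Adamts14, at 7.45, the nearest below, passing in sample 3 alone. Adamts13, which cuts von Willebrand factor, had 6.65, and the lowest member was Adamts6 at 6.02. Adamts16, Adamts18 and Adamts19 were between 6.77 and 7.10.

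The ADAMTS-like proteins lack the protease domain and several of them bind fibrillin microfibrils. Adamtsl5 had 9.03, 9.03 and 9.15 and was the 1 member more than 1 above the threshold. Adamtsl4 at 8.41 passed by less than 1 in samples 1 and 2, and Adamtsl2 at 7.50 by 0.02 on the array with the highest threshold. Adamtsl1 at 7.40 and Adamtsl3 at 5.48 did not pass. Apart from Adamtsl5 each of these had 1 value on all 3 arrays.

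Most members were read by 1 probe set, but 4 had several, and for 3 of them the probe sets fell on both sides of the threshold. Of the 5 probe sets of Adamts17 2 passed, at means of 9.53 and 9.23, while the others lay between 6.49 and 6.82. Of the 16 probe sets of Adamts3 3 passed, with means from 4.28 to 7.997 and a median of 6.16. Of the 6 probe sets of Adamts9 4 passed, with means from 7.04 to 8.65. Averaged over its probe sets, Adamts3 no longer passed, whereas Adamts9 and Adamts17 did. The 2 probe sets of Adamtsl1 were both below the threshold. The calls of Adamts3, Adamts9 and Adamts17 therefore rest on part of their probe sets.

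**Figure D3:**
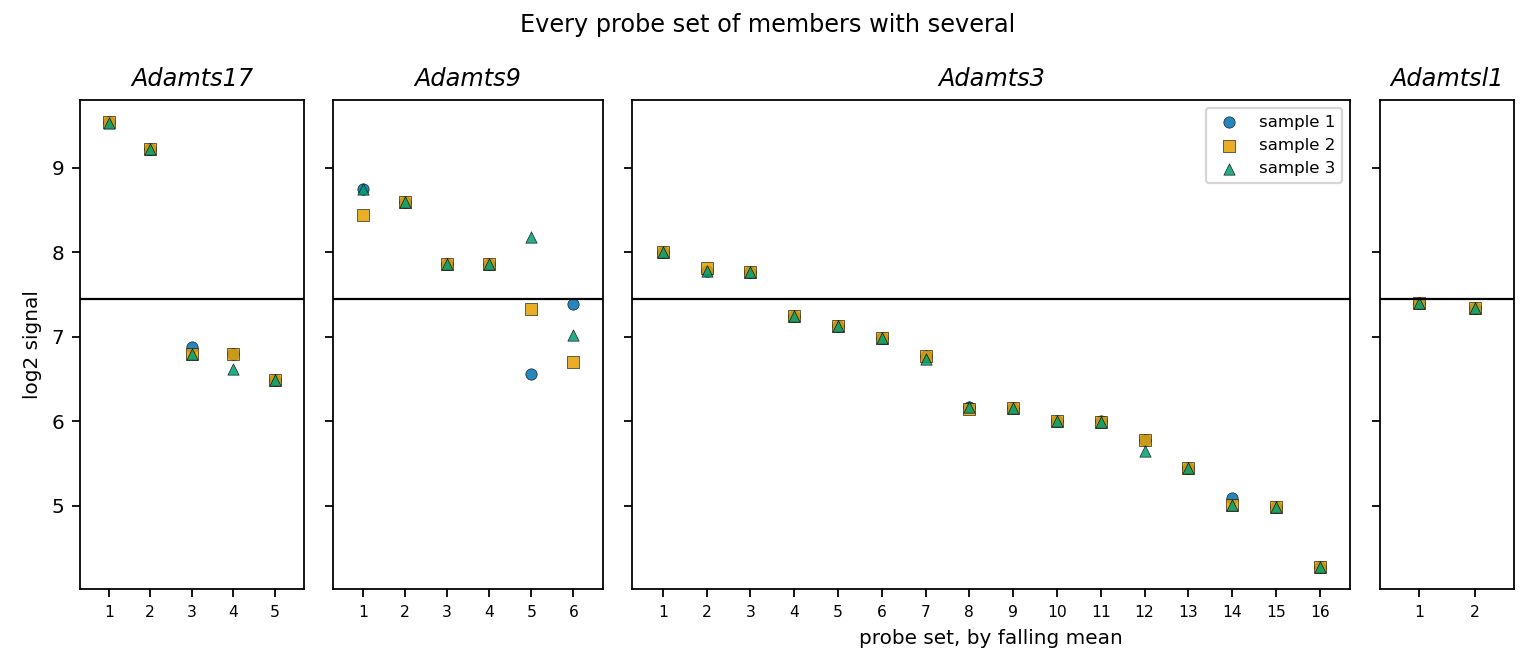
Log2 signal in the 3 samples for every probe set of the 4 members with several, ordered by falling mean, with the mean silent-gene threshold as a line. In Adamts17, Adamts9 and Adamts3 the probe sets lie on both sides of the line, 2 of 5, 4 of 6 and 3 of 16 being above the threshold on all 3 arrays.

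The 3 samples agreed closely for most members. A range over the arrays of at least 0.5 was seen in 2 of the 83, Adam22 with 0.72 and Timp3 with 0.53, against 3.44% of the other named genes. In both, sample 1 was the lowest, and without sample 1 no member reached this range. Identical values are part of this agreement, since 48 members (57.8%) had 1 value on all 3 arrays, against 51.1% of the other genes, so that an SD of 0 is no sign of an exact measurement. Among the 30 members above the threshold 9 had 1 value, 11 had 2 values and 10 had 3, and the median range was 0.04, against 0.03 for the other genes above it.

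Among the members above the threshold, 12 had a range of 0.1 or more, a limit set after the values were seen. Sample 2 was the lowest in 8 of them (Adam9, Adam12, Adam17, Adamts1, Adamts9, Mmp2, Mmp11 and Timp2), and sample 1 in Adam22 and Timp3. Adamts9 was read here by 1 of its 6 probe sets. Of its other probe sets, 3 had 1 value on all arrays, 1 read 6.56, 7.33 and 8.18, and 1 read 7.38, 6.71 and 7.02. Sample 2 was the lowest in 30.9% of the 3808 other genes chosen the same way. Adamts1 was 0.37 higher in sample 3 than in sample 2, Adam9 0.40 and Adam17 0.31. These 3 genes, like Adam12 and Timp2, were lowest in sample 2 and highest in sample 3, whereas Adamts9, Mmp2 and Mmp11 did not have this full order. Its share over other named genes was not counted, so the markers that follow have no baseline. The smooth muscle markers Myh11 (10.44, 10.19 and 10.70), Acta2 (10.64, 10.50 and 10.98) and Tagln (8.87, 8.76 and 9.14) had the same order of samples. Of the other smooth muscle markers, Smtn had 10.17 on all 3 arrays and Cnn1, which did not pass the threshold, was lowest in sample 1. The order was also seen in the endothelial markers Emcn (10.31, 10.23 and 10.59) and Ehd3 (10.53, 10.14 and 10.58), 2 of 7, and in the podocyte marker Synpo (8.30, 8.08 and 8.39), 1 of 5. Below the threshold it was seen in the macrophage marker Lyz2, 1 of 7, and no mesangial, fibroblast, neutrophil, spermatid or tubule marker had it. The mesangial markers Des (10.62, 10.42 and 10.60) and Ptn (13.19, 12.96 and 13.14) were also lowest in sample 2, but highest in sample 1. The other mesangial markers were lowest in sample 1 or 3. The part of these cell types in the members' values was not tested. The tubule marker Umod had another order, with 9.51, 9.18 and 8.22 in samples 1, 2 and 3. With 1 array per sample none of these differences could be tested.

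**Figure D4:**
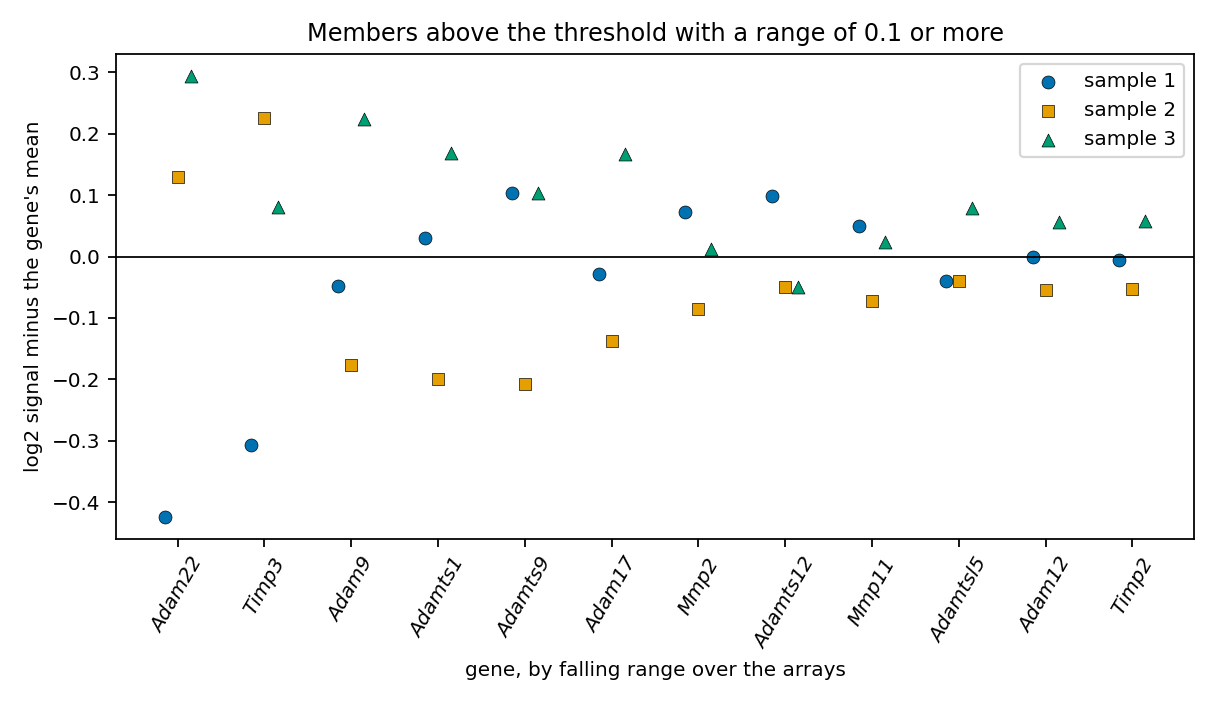
Deviation of each sample from the gene's mean log2 signal for the 12 members above the threshold with a range of 0.1 or more. Sample 2 (orange squares) is the lowest in 8 of the 12 genes, and sample 1 (blue circles) in Adam22 and Timp3.

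Genes that activate, hold back or receive these proteases were described from lists chosen with earlier results of these data known. Of 96 measured genes in 6 lists 51 (53.1%) passed the threshold. The share was 58.1% over the 18602 named genes that are neither members nor silent genes, and 54.7% over all 19938 named genes. The threshold raised by 1 was passed by 30 of the 96 (31.25%), against 32.8% and 30.8%. By list the share above the threshold ran from 26.3% for other metalloproteases to 77.8% for escorts of Adam10 and Adam17. It was 61.9% for ADAM substrates and 60.9% for matrix substrates, near the 58.1% above. With the threshold raised by 1 the shares ran from 21.1% for other metalloproteases to 38.1% for ADAM substrates. The escorts then had 3 of 9 (33.3%), near the 32.8% above. Among 12 genes of protease activation 6 passed. The proprotein convertase Furin, which removes the prodomain of membrane MMPs, ADAMs and ADAMTS enzymes, had 8.87, 8.73 and 8.75. The urokinase gene Plau had 9.80, 9.40 and 9.95 and the tissue plasminogen activator gene Plat 8.88, 8.78 and 8.76. Plau was lowest in sample 2, and these 3 genes were the ones more than 1 above the threshold. The urokinase receptor Plaur at 6.99 and plasminogen, Plg, at 6.23 did not pass, and the lowest of the list was Serpinb2 at 6.21.

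Inhibitors and receptors other than TIMPs passed in 6 of 12 cases. Reck, a membrane-anchored inhibitor of several MMPs, had 9.77 on all 3 arrays. Lrp1, the endocytic receptor that clears many MMPs, ADAMTS enzymes and TIMPs, had 11.07, 10.88 and 10.90. Thbs1, a matricellular protein, ranged widely with 9.47, 8.79 and 9.81, again lowest in sample 2, and Bsg, an inducer of MMPs in neighbouring cells, had 9.16, 9.10 and 9.10. The plasma-type inhibitor genes A2m and Pzp did not pass, and Spock3 at 5.45 was the lowest.

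Proteins that escort Adam10 and Adam17 to the cell surface passed in 7 of 9 cases. The tetraspanin genes Tspan5 and Tspan17, which guide Adam10, had 10.37, 10.20 and 10.43 and 9.45, 9.37 and 9.37. Rhbdf1, an inactive rhomboid that guides Adam17, had 8.89, 8.54 and 8.54. Its relative Rhbdf2 at 7.67 ± 0.02 (SD, n = 3) and the cofactor Frmd8 at 7.69 passed by less than 1, and Tspan33 at 6.75 was the lowest.

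Of 21 known ADAM substrates 13 passed. Those more than 1 above the threshold were the amyloid precursor App (12.22 ± 0.08), the adhesion molecule Vcam1 (11.00 ± 0.25), the tumour necrosis factor receptor Tnfrsf1a (9.78 ± 0.07), Notch3 (9.57 on all 3 arrays), the growth factor Hbegf (9.27 on all 3), the chemokine Cxcl16 (9.09 ± 0.18), Notch1 (8.97 ± 0.06) and the Notch ligand Jag1 (8.81 on all 3), each with its SD over n = 3. The cytokine Tnf, for which Adam17 was named, had 6.96 and did not pass, and the lowest was Ereg at 6.34.

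Matrix substrates passed in 14 of 23 cases. More than 1 above the threshold were the small proteoglycan Bgn (12.16 ± 0.08), the basement membrane linkers Nid1 (10.83 ± 0.01) and Nid2 (8.87 ± 0.23), the type IV collagen chains Col4a1 (9.88 ± 0.19) and Col4a2 (9.56 ± 0.16), the type I chains Col1a2 (8.80) and Col1a1 (8.59), and the latent TGF-beta binding protein Ltbp1 (8.56), each with its SD over n = 3 or 1 value on the 3 arrays. The large aggregating proteoglycans that Adamts1 and Adamts5 cut did not pass on all 3 arrays. Vcan had 6.10, Acan 6.81, Bcan 6.99 ± 0.07 and Ncan 7.47 ± 0.00 (SD, n = 3). The lowest of the list was Lum at 5.33.

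Other metalloproteases passed in 5 of 19 cases. The carboxypeptidase genes Cpd, at 11.56, 11.64 and 11.56, Cpm, at 11.62, 11.72 and 11.36, and Cpe, at 9.65, 8.61 and 9.50, lay more than 1 above the threshold, with sample 2 lowest in Cpe. Bmp1, the procollagen C-proteinase, had 9.25, 9.21 and 9.21. Both tolloid-like genes and both meprin genes were below the threshold, and the lowest of the list was Phex at 5.81 ± 0.02 (SD, n = 3).

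**Figure D5:**
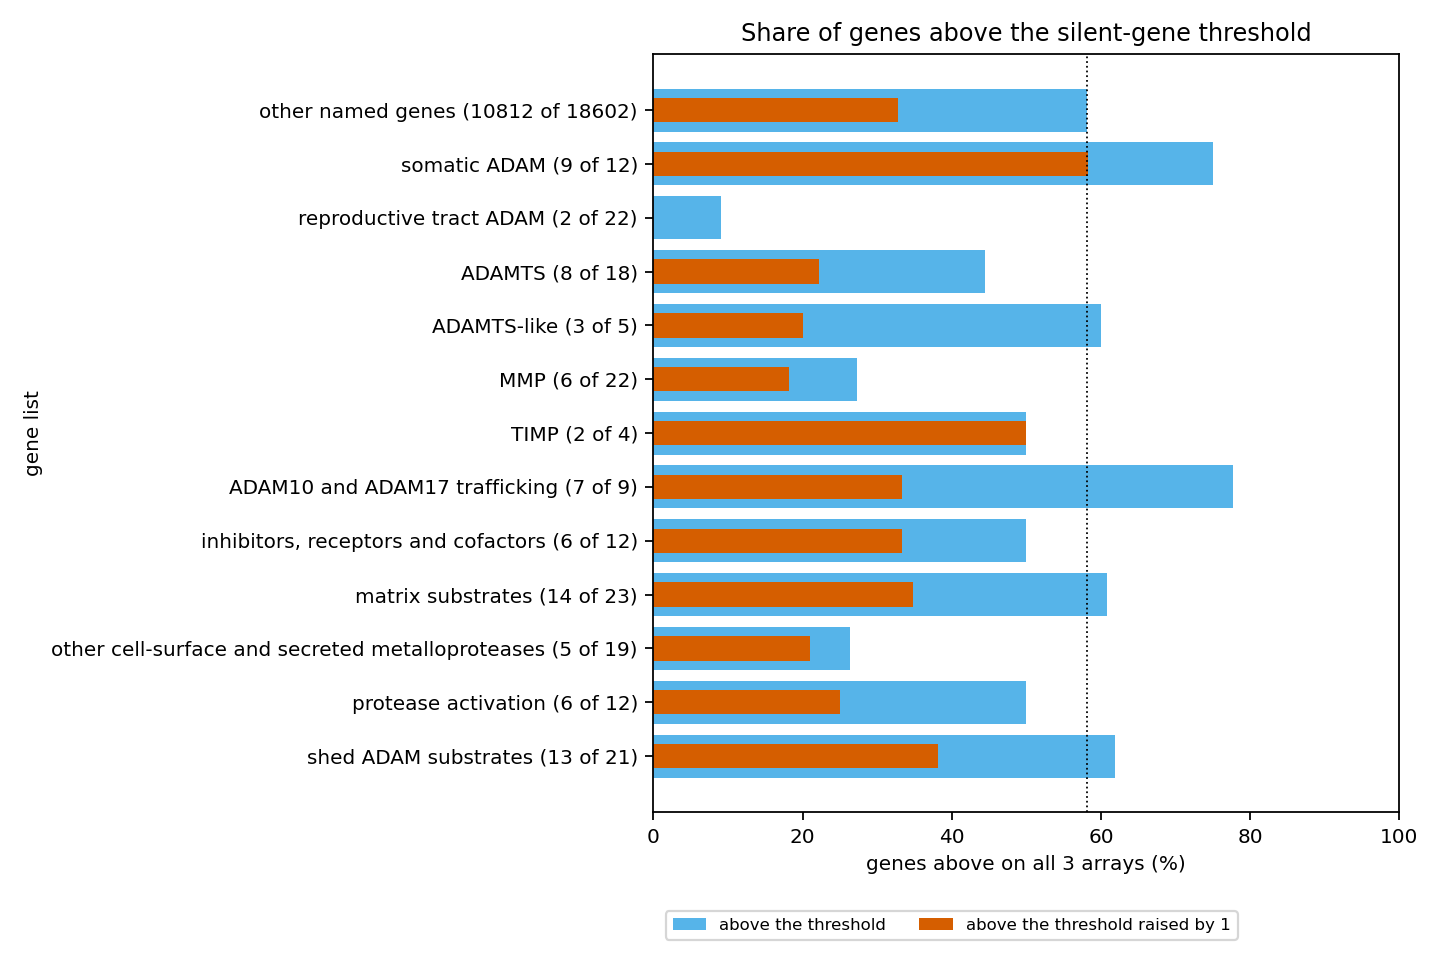
Share of measured genes that passed the silent-gene threshold in every sample (blue) and above the threshold raised by 1 (orange), for the families and for the 6 related lists, with counts in brackets. The dotted line marks the 58.1% of other named genes; somatic ADAM genes lie to its right with 9 of 12, and reproductive tract ADAM genes to its left with 2 of 22.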

How the data were processed

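RNA of 3 samples was amplified in 1 round (WT-Ovation Pico), labelled with biotin and hybridised to 1 Affymetrix array each, as the labels' protocols state. The authors deposited log2 signals per probe set, and the submitters' processing notes name Affymetrix Expression Console. The log base was inferred from the highest value of 14.39. Background correction, summary method, scale and centring are unknown here, and the array medians were 7.53, 7.56 and 7.54. Values were used as deposited, and precision is limited by the number of arrays.

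Of 35557 probe sets 21789 had 1 gene symbol, 1621 had several, and 12147 without an annotation entry remain unnamed. Symbols were updated by Entrez number through the GRCm38.p6 RefSeq table (21698 matched, 91 kept). The silent reference held 1269 probe sets, and 14310 probe sets (40.2%) had 1 value on all 3 arrays.

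The members, lists and rules were chosen with earlier results of these data known. Named genes were members passing the threshold raised by 1, the TIMPs, those nearest the threshold and lowest in each family, those with a range of at least 0.5 or discordant probe sets, and of each related list those passing the raised threshold and the lowest. Others are named by family. Calls were made with Python 3.11.15 and pandas 2.3.3 and tested on simulated data. No test between groups was possible. Motif counts in member proteins were planned and not run.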

Additional observations from a re-analysis of the deposited data

How the results depend on the processing

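The count of members above the threshold was 30 of 83, and it was 30 without each of the 3 samples in turn, with the same genes. Under the other alternatives it lay between 18 and 40, below the share of other named genes each time. Raising the threshold by 1 lowered it to 18, and the count of related genes from 51 to 30. At the 99th percentile 21 passed, at the 90th 40. With the lowest-mean probe set Adamts3, Adamts9 and Adamts17 were lost. The count of members with a range of at least 0.5 was 2, 0 at a minimum of 1, and from 0 to 2 when a sample was left out: 0 without sample 1, 1 without sample 2 (Adam22) and 2 without sample 3. Centring each array on its median or on the silent probe sets gave the same 2. With the lowest-mean probe set of each gene the count rose to 3, Adamts9 joining Adam22 and Timp3. Mean levels of the 4 genes with several probe sets moved by more than their SD with another choice of probe set. For Adamts3 and Adamtsl1 the SD was 0, so any change exceeded it and nothing follows from that label. With the lowest-mean probe set Adamts17 went from 9.53 to 6.49, Adamts9 from 8.65 to 7.04 and Adamts3 from 7.997 to 4.28. Adamtsl1 went only from 7.40 to 7.34. The other members were recomputed only by leaving out 1 sample, which cannot move a mean of 3 by its SD, so nothing follows on their stability. No paired analysis was possible because there was 1 group. The planned count of catalytic motifs, with its alternative, was not run.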

Other observations

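A probe set of Adamts9 other than the one used for the gene read 6.56, 7.33 and 8.18 in samples 1, 2 and 3, and another read 7.38, 6.71 and 7.02, while 3 further probe sets of the gene had 1 value each on the 3 arrays. The first of these had the widest range of any probe set of the 4 members with several. A probe set shared by Adam26a, Adam26b, Adam34, Adam34l and 1 further gene had 4.83 on all 3 arrays, like the separate probe sets of these genes, which lay between 4.04 and 5.61.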
